A study of Homo sapiens with 32 samples.

Results

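Expression of 8 SOX transcription factor genes was followed in RH4 cells treated with compounds against the coactivators CBP and p300. RH4 is an established human alveolar rhabdomyosarcoma line. The 8 genes were SOX4, SOX5, SOX6, SOX8, SOX9, SOX11, SOX12 and SOX13, taken by symbol from the 18980 coding genes that each RNA-seq file lists. Their choice was made with earlier results of these data known. Cells had received A485, dCBP, IHK-44 or JQAD, each at 100 nM or 1 uM for 2 h or 6 h, and the series describes the compounds as inhibitors or degraders of CBP and p300. The reference cells of each time were a DMSO culture (the solvent) and a culture labelled NT, an abbreviation that the labels do not spell out. Every condition had 1 library, which gives 16 treated and 4 control libraries of the 1 line, and the labels name no modified genotype. The 11 ChIP-seq samples and the ChRO-seq sample of the series were not analysed here.

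SOX proteins bind DNA through an HMG box and bend it, and most of them set cell identity during development. SOXE proteins (here SOX8 and SOX9) act in neural crest, cartilage, gonad and muscle satellite cells. SOXC proteins (SOX4, SOX11 and SOX12) are activators in progenitor cells, and SOXD proteins (SOX5, SOX6 and SOX13) have no activation domain of their own and work beside other factors. CBP and p300 are histone acetyltransferases found at active enhancers and promoters, and A485 is known as an inhibitor of their catalytic domain.

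RefSeq promoter windows of GRCh38.p14 (250 bases before to 50 after a gene's start) were at hand for 5 of the 8 genes, which are SOX4, SOX5, SOX6, SOX12 and SOX13. The study's title concerns CpG island density, so 4 windows are printed that span the range of CG content among these genes. Each runs 5′ to 3′ on the strand of the gene, with every CG dinucleotide in capitals.
SOX4, chr6:21593501-21593800, plus strand: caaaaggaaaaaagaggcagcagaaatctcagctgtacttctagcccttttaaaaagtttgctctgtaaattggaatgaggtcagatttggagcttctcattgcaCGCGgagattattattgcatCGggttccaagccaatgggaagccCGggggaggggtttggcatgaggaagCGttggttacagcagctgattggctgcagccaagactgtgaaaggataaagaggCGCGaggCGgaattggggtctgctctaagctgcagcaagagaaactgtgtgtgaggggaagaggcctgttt
SOX13, chr1:204072865-204073164, plus strand: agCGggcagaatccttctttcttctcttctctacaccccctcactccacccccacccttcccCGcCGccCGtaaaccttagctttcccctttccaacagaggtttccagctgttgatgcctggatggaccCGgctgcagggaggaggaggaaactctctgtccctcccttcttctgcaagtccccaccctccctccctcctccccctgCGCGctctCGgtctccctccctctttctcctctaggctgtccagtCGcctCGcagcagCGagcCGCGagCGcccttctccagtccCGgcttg
SOX6, chr11:16738428-16738727, minus strand: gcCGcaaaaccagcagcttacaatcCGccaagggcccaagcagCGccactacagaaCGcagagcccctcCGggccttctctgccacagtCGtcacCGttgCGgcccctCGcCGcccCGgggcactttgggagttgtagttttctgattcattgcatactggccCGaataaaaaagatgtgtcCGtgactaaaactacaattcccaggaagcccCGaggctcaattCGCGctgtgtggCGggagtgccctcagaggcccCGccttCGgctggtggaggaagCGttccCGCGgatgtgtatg
SOX12, chr20:325302-325601, plus strand: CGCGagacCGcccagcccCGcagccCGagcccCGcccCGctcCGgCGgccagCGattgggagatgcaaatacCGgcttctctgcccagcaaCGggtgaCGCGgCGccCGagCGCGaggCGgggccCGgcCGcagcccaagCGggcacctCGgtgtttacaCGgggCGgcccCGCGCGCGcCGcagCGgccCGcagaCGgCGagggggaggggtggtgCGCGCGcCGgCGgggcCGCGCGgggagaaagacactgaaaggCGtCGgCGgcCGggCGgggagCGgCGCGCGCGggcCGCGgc
The SOX4 window held 8 CG dinucleotides, that of SOX13 held 15, the SOX6 window shown held 22 and that of SOX12 held 54. Over the 35116 windows of all genes the median was 14, with quartiles of 4 and 28. The SOX12 window therefore lies near the top of the distribution, with 99.5% of windows holding fewer. The SOX5 window (chr12:24562442-24562741, minus strand) held 29. SOX6 has 5 windows in the table, and the other 4 held between 0 and 2.

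Searched on both strands, the SOX4 window held 4 matches to CCAAT, a motif present in 34.6% of all windows, and 2 to CAGCTG, an E-box type bound by myogenic factors and present in 17.9%. The SOX12 window held 4 matches to GGGCGG, the core of a GC box, which 45% of windows contain. These matches are descriptions of the letters in the windows and not measured binding sites.

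Library sizes ran from 13466631 to 16799327 estimated reads in coding genes. CPM values are read counts scaled to the same total of coding reads in every library, so they compare 1 gene between libraries, while FPKM is also scaled by gene length and is used to compare genes. In bulk RNA, fewer cells of a kind and less RNA per cell cannot be told apart. Of 10 markers of myoblasts and fusion-positive rhabdomyosarcoma, 8 had a mean of at least 1 CPM in the controls, whereas MYF5 was at 0 in 17 of 20 libraries and CDH3 lay between 0.180 and 0.257 CPM in the controls. The summed marker level was 3060 to 3307 CPM in the controls, 3120 to 3550 with JQAD, 1892 to 3039 with A485, 1577 to 2654 with dCBP and 1495 to 2725 with IHK-44. Their part in the SOX results was not tested. The 5 markers of other cell types summed to at most 1.62 CPM in any library, with EPCAM at 0 in all 20 and PTPRC in 19.

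In the 4 control libraries SOX8 had by far the highest level per length, at 278 ± 8.73 FPKM (SD, n = 4). SOX12 followed at 35.7 ± 1.69, SOX4 at 30.0 ± 2.59 and SOX11 at 14.4 ± 0.324 FPKM, so the 3 SOXC genes came next in order. SOX13 (7.31 ± 0.521 FPKM) and SOX9 (5.88 ± 1.47 FPKM) were closer than the sum of their SDs, though SOX13 was the higher in each of the 4 libraries. The SD of SOX9 contains a difference between times, with 5.06 and 4.23 FPKM at 2 h and 7.26 and 6.95 FPKM at 6 h (DMSO and NT). SOX6 stood at 3.02 ± 0.107 FPKM and SOX5 at 0.27 ± 0.09 FPKM, the lowest of the 8. Among the 8, the remaining neighbours in this order were farther apart than the sum of their SDs. SOX15 at 1.17 and SOX7 at 1.05 FPKM lay between SOX6 and SOX5. The other 9 SOX genes listed outside the 8 were lower than 1 CPM in every library.

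The change with treatment is fitted as log2 of a compound's 2 doses together over the DMSO and NT libraries of the same time, in edgeR (quasi-likelihood F test, p-values adjusted by Benjamini-Hochberg over 13260 genes). A gene is called at an adjusted p under 0.05. The 2 doses stand in for replicates, so the spread contains any difference between doses, and the p-values measure the spread between these libraries only. All compounds of a time share the same 2 control libraries.

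At 6 h the SOX genes fell together with dCBP and IHK-44. With IHK-44, 8 of 8 were called lower, against 21.4% of all genes tested called lower and 42.1% called in either direction. With dCBP, 7 of 8 were called lower, against 22.4% lower and 45.5% in either direction, with SOX13 the exception. With A485, 5 of 8 were called lower (SOX4, SOX6, SOX9, SOX11 and SOX13), against 8.7% lower and 16.6% in either direction. None was called higher with these compounds. Because the 8 genes were chosen with earlier results of these data known, their counts beside these shares are a description and not a test. The median fitted log2 change over the 8 genes was -0.94 with A485, -2.20 with dCBP and -2.25 with IHK-44, beside 0.02, 0.06 and 0.06 over all genes tested.

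**Figure D1:**
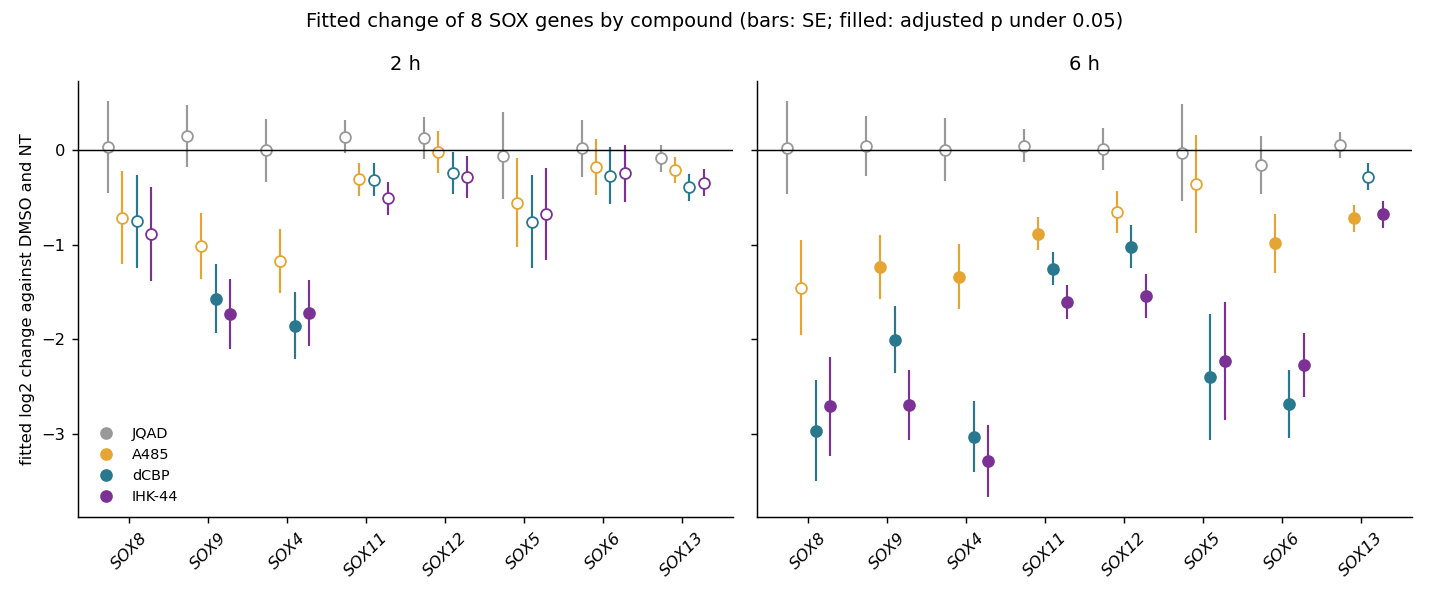
Fitted log2 change of each SOX gene against the DMSO and NT libraries of the same time (vertical axis) for each compound at 2 h and 6 h, with bars of 1 SE from the edgeR fit and filled points at an adjusted p under 0.05. With dCBP and IHK-44 at 6 h the points of SOX4, SOX5, SOX6, SOX8 and SOX9 lie at -2.01 or lower, while those of JQAD stay within 0.16 of 0.

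JQAD gave no call at either time in edgeR, where 0% of all genes were called (284 of 13260 genes at an unadjusted p under 0.05 at 6 h and 138 at 2 h). None of the 8 SOX genes had an unadjusted p under 0.05 with JQAD, and DESeq2 and limma called none either. The fitted 6 h changes with JQAD ran from -0.16 for SOX6 to 0.05 for SOX13. For SOX11 the 95% confidence interval was -0.32 to 0.41, and for SOX8 it was -1.01 to 1.06, which is wide enough to hold a change of 2-fold. The SOX8 interval uses the spread shared by all compounds, which includes the dose gaps of A485 and IHK-44 at 6 h. NT against DMSO likewise gave 0% of genes called by edgeR, with 104 genes and none of the 8 at an unadjusted p under 0.05, and no member was called by DESeq2 or limma.

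SOX8, which is expressed in muscle satellite cells and the neural crest, had 870 and 847 CPM in DMSO at 2 h and 6 h and 809 and 849 CPM in NT. After 6 h it stood at 116 CPM with 1 uM dCBP and 126 CPM with 100 nM dCBP, and at 43.6 CPM with 1 uM IHK-44 and 246 CPM with 100 nM IHK-44. A485 left 191 CPM at 1 uM and 458 CPM at 100 nM. All 6 libraries lie under all 4 controls, and those of dCBP are close together while those of A485 and IHK-44 spread with dose. With JQAD the 6 h values were 951 CPM at 1 uM and 780 CPM at 100 nM, one above and one below the controls.

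The fitted SOX8 change at 6 h was -2.97 ± 0.53 (SE) with dCBP (edgeR, Benjamini-Hochberg adjusted p = 0.00034), which is 7.81-fold lower. With IHK-44 it was -2.71 ± 0.52 (edgeR adjusted p = 0.00066), or 6.53-fold lower. The IHK-44 value was -4.47 without the 100 nM library and -1.94 without the 1 uM library, and passed the test both times (edgeR adjusted p = 1.7e-05 and 0.0016). The change with A485, -1.45 ± 0.50, missed the threshold (edgeR adjusted p = 0.056). That A485 call turned on the lower dose: without the 100 nM library the value was -2.28 (edgeR adjusted p = 0.010), and with all libraries limma called it at adjusted p = 0.042 on log2(CPM + 1).

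After 2 h SOX8 was already lower in each library of these 3 compounds. It had 422 CPM with 1 uM and 629 CPM with 100 nM A485, 529 and 501 CPM with dCBP, and 452 and 487 CPM with IHK-44, in the same order of doses. These values lie between 50.2% and 74.9% of the mean of the 2 h controls. None of the 3 fitted 2 h changes (-0.72, -0.75 and -0.89) passed the test, with edgeR adjusted p-values of 0.61, 0.39 and 0.37. The shared spread used here includes the dose gaps of the 6 h libraries. JQAD at 2 h left 850 CPM at 1 uM and 840 CPM at 100 nM, inside the range of the controls.

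**Figure D2:**
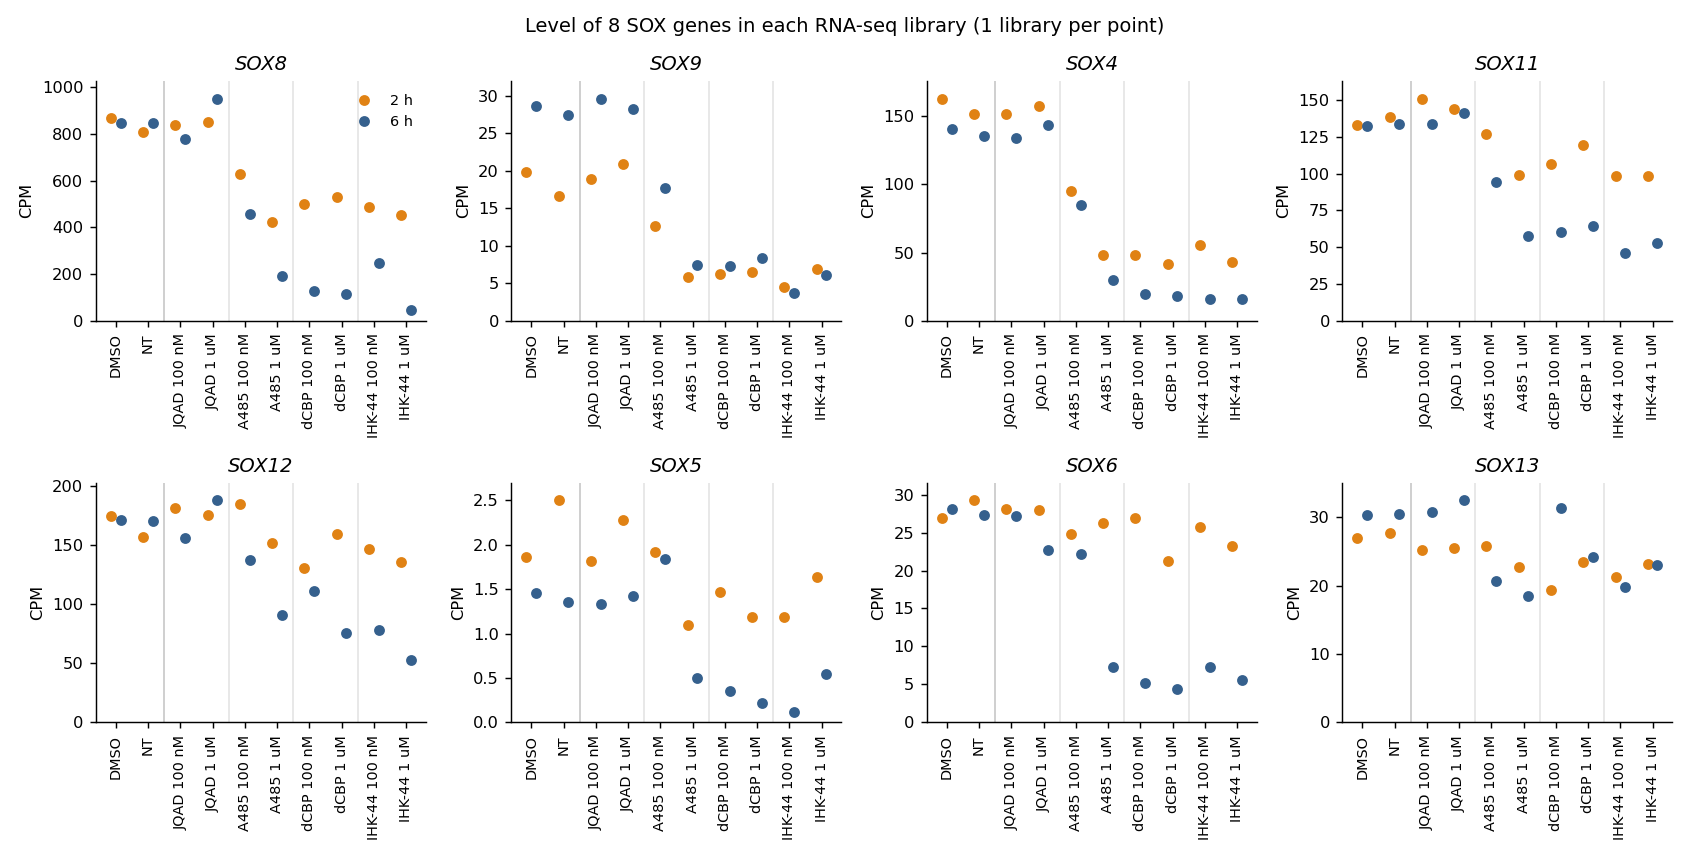
CPM of each SOX gene in all 20 libraries (vertical axis, linear from 0), 1 panel per gene and 1 point per library, with conditions along the horizontal axis and the times in 2 colours. SOX8 runs from 809 to 870 in the controls and reaches its lowest level, 43.6, with 1 uM IHK-44 at 6 h.

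SOX9, a SOXE factor best known as the master regulator of cartilage, had a low level in RH4 and was called lower as early as 2 h. Its controls had 19.8 (DMSO) and 16.6 (NT) CPM at 2 h and 28.6 and 27.4 CPM at 6 h, a 6 h over 2 h difference of 0.62 ± 0.33 on the log2 scale that did not pass the test (edgeR adjusted p = 0.62). This comparison of the controls over time was chosen after seeing the data, and 0.0754% of genes were called in it. With 1 uM and 100 nM of each compound at 2 h, SOX9 had 5.76 and 12.7 CPM under A485, 6.43 and 6.26 CPM under dCBP, and 6.83 and 4.55 CPM under IHK-44. Every treated library of these compounds is below both controls, and only 100 nM A485 is above 10 CPM. At 6 h the values were 7.47 and 17.7 CPM with A485, 8.33 and 7.22 CPM with dCBP, and 6.07 and 3.63 CPM with IHK-44. JQAD left 20.9 and 18.9 CPM at 2 h and 28.2 and 29.6 CPM at 6 h, near the controls of the same time.

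SOX9 was called lower at 2 h with dCBP (-1.57 ± 0.37, edgeR adjusted p = 0.022) and IHK-44 (-1.74 ± 0.37, edgeR adjusted p = 0.013). At 6 h it was lower with A485 (-1.24 ± 0.34, edgeR adjusted p = 0.022), dCBP (-2.01 ± 0.36, edgeR adjusted p = 0.0003) and IHK-44 (-2.70 ± 0.37, edgeR adjusted p = 3.2e-05).

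SOX4, a SOXC factor of progenitor and many tumour cells, fell with A485, dCBP and IHK-44 at 6 h. It had 163 and 141 CPM in DMSO and 152 and 135 CPM in NT at 2 h and 6 h. The 6 h values were 18 CPM with 1 uM and 19.7 CPM with 100 nM dCBP, 16 and 15.7 CPM with IHK-44, and 29.5 and 85.2 CPM with A485. The 4 libraries of dCBP and IHK-44 lie between 11.4% and 14.2% of the mean of the 6 h controls, whatever the dose. At 2 h the values were already 41.5 and 48.4 CPM with dCBP, 43.1 and 55.4 CPM with IHK-44, and 48.0 and 95 CPM with A485. JQAD left between 134 and 158 CPM in its 4 libraries, which overlaps the controls.

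The fitted SOX4 change at 6 h was -3.29 ± 0.38 with IHK-44 (9.79-fold lower, edgeR adjusted p = 8.9e-06), -3.03 ± 0.38 with dCBP (8.17-fold lower, edgeR adjusted p = 1.7e-05) and -1.34 ± 0.35 with A485 (edgeR adjusted p = 0.017). At 2 h it was -1.86 ± 0.35 with dCBP (edgeR adjusted p = 0.0092) and -1.72 ± 0.35 with IHK-44 (edgeR adjusted p = 0.0094).

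SOX4 and SOX9 were the only members called at 2 h, 2 of 8 with dCBP and the same 2 with IHK-44, against 5.63% and 4.88% of all genes in either direction and 2.67% and 2.45% lower. With A485 at 2 h edgeR called 0 of 8, against 0.0452% of all genes, and SOX4 (-1.17, adjusted p = 0.16) and SOX9 (-1.02, adjusted p = 0.24) were the 2 members at an unadjusted p under 0.05. DESeq2 and limma also called none there. The 2 h calls rest on few libraries. Those with dCBP and IHK-44 were lost without DMSO 2 h, without NT 2 h or without the 1 uM library. SOX4 with dCBP was then -1.81, -1.92 and -1.76. Each of these fits left 1 library in a group, and far fewer of all genes were called in them too. The loss is therefore not particular to SOX4 and SOX9. Without 100 nM IHK-44 none was called with that compound, and without 100 nM dCBP SOX4 alone was called. In the opposite direction, without 100 nM A485 at 2 h SOX4 and SOX9 were both called with A485 (-1.79 and -1.74, edgeR adjusted p = 0.034 and 0.041).

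SOX11, a SOXC factor of neural progenitors, was called at 6 h and not at 2 h. Its 4 controls ran from 132 to 139 CPM. At 2 h it had 98.9 and 127 CPM with 1 uM and 100 nM A485, 120 and 106 CPM with dCBP, and 98.7 and 98.6 CPM with IHK-44. At 6 h these had become 57.8 and 94.6 CPM, 64.4 and 60.2 CPM, and 52.6 and 46.0 CPM. All 12 of these libraries were below the lowest control, with 100 nM A485 at 2 h the nearest to it, and JQAD (134 to 151 CPM) was not.

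At 6 h SOX11 was lower with A485 (-0.88 ± 0.18, edgeR adjusted p = 0.0057), dCBP (-1.25 ± 0.18, edgeR adjusted p = 4.8e-05) and IHK-44 (-1.60 ± 0.18, edgeR adjusted p = 7.1e-06). No 2 h change passed the test.

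SOX12, the third SOXC gene and the one with the window of 54 CG dinucleotides, had 157 to 175 CPM in the controls. At 2 h A485 left 152 and 185 CPM at 1 uM and 100 nM, dCBP 160 and 130 CPM, and IHK-44 136 and 147 CPM. A485 and dCBP overlapped the controls, both IHK-44 libraries lay below them, and no 2 h change passed the test. At 6 h the values were 91.3 and 137 CPM with A485, 75.7 and 111 CPM with dCBP, and 53.2 and 78.3 CPM with IHK-44, all below the controls and lower at the higher dose. JQAD ran from 156 to 188 CPM. The 6 h change was -1.54 ± 0.23 with IHK-44 (edgeR adjusted p = 6.8e-05) and -1.02 ± 0.23 with dCBP (edgeR adjusted p = 0.0017), while -0.66 ± 0.22 with A485 missed the threshold (edgeR adjusted p = 0.054; limma on log2(CPM + 1) adjusted p = 0.045).

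SOX6, the SOXD factor known for repressing slow-fibre genes in muscle, had 27.0 to 29.2 CPM in the controls and stayed near them at 2 h. Its 2 h values were 26.2 and 24.9 CPM with 1 uM and 100 nM A485, 21.2 and 27.0 CPM with dCBP, and 23.2 and 25.8 CPM with IHK-44. By 6 h it stood at 4.35 and 5.24 CPM with dCBP, 5.59 and 7.26 CPM with IHK-44, and 7.28 CPM with 1 uM A485, but 22.2 CPM with 100 nM A485. JQAD gave 22.7 to 28.1 CPM. The 5 low libraries at 6 h are thus well apart from the rest, with A485 divided by dose.

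The fitted 6 h changes of SOX6 were -2.68 ± 0.36 with dCBP (6.42-fold lower, edgeR adjusted p = 2.7e-05), -2.27 ± 0.34 with IHK-44 (edgeR adjusted p = 6.7e-05) and -0.99 ± 0.31 with A485 (edgeR adjusted p = 0.041; DESeq2 adjusted p = 0.063). At 2 h the largest was -0.27, and none passed the test.

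SOX13, a SOXD factor known as a partner of TCF1 in T cells, had the smallest fitted 6 h changes of the 8 with dCBP and IHK-44. It had 27.0 and 30.4 CPM in DMSO and 27.7 and 30.6 CPM in NT at 2 h and 6 h. At 6 h A485 left 18.4 CPM at 1 uM and 20.7 CPM at 100 nM, IHK-44 23.1 and 19.8 CPM, and dCBP 24.3 and 31.4 CPM. The 2 dCBP libraries lie on either side of the controls, and the other 4 lie below them. The 2 h values ran from 19.4 to 25.8 CPM with these 3 compounds, and JQAD gave 25.2 to 32.5 CPM over both times. The change was -0.72 ± 0.14 with A485 (edgeR adjusted p = 0.0057), -0.68 ± 0.14 with IHK-44 (edgeR adjusted p = 0.0013) and -0.28 ± 0.14 with dCBP (edgeR adjusted p = 0.11), and without the 100 nM dCBP library the last was -0.50 (edgeR adjusted p = 0.015) and without the 1 uM dCBP library -0.08 (edgeR adjusted p = 0.65).

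SOX5, the third SOXD gene, rested on few reads: 31 and 22 in DMSO and 40 and 21 in NT at 2 h and 6 h, or 1.35 to 2.50 CPM. At 6 h dCBP left 3 reads at 1 uM and 5 at 100 nM, IHK-44 9 and 2, and A485 8 and 27. The exact Poisson interval for the 2 reads of 100 nM IHK-44 was 0.0144 to 0.430 CPM, and for the 22 reads of DMSO at 6 h it was 0.912 to 2.20 CPM (95%, counting error only). The intervals of the 2 dCBP libraries and of 100 nM IHK-44 thus lie below that of DMSO, while those of 1 uM IHK-44 and 1 uM A485 overlap it. SOX5 was called with dCBP (-2.40 ± 0.67, edgeR adjusted p = 0.0079) and IHK-44 (-2.23 ± 0.62, edgeR adjusted p = 0.0089), and both calls were lost without a single library (1 uM dCBP: -2.09, adjusted p = 0.052; 100 nM IHK-44: -1.55, adjusted p = 0.093). With A485 it was -0.36 ± 0.52 (edgeR adjusted p = 0.66) and turned to 0.35 without the 1 uM library.

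The A485 calls at 6 h depended on single libraries. No member was called without NT 6 h or without 1 uM A485, 2 were called without DMSO 6 h (SOX11 and SOX13), and 7 without 100 nM A485. SOX4, for example, went from -1.34 to -0.74 without 1 uM A485 and to -2.35 without 100 nM A485. Each of these fits left 1 library in a group. The calls over all genes fell and rose with those of the members, so these shifts are not particular to the SOX genes. With either control alone, or in a model that pools both times, the A485 calls were lost. With dCBP and IHK-44 most or all calls stayed with each control alone. The pooled-time model called 4 members with dCBP and 6 with IHK-44. That model called 3137 and 2247 of all genes with these 2 compounds, and 36 with A485. With either control alone, too, far fewer of all genes were called with A485 than with dCBP or IHK-44.

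Whether a compound's effect grew between 2 h and 6 h was tested as the difference of its 6 h and 2 h changes. SOX6 passed with dCBP and with IHK-44, -2.41 ± 0.47 for dCBP (edgeR adjusted p = 0.0078) and -2.03 ± 0.45 for IHK-44 (edgeR adjusted p = 0.010). SOX11 passed with dCBP (-0.94 ± 0.25, edgeR adjusted p = 0.028) and IHK-44 (-1.09 ± 0.25, edgeR adjusted p = 0.011), and SOX12 with IHK-44 (-1.26 ± 0.32, edgeR adjusted p = 0.019). These are 2 of 8 members with dCBP and 3 of 8 with IHK-44, against 9.06% and 9.89% of all genes in either direction and 6.4% and 7.76% lower. SOX8 missed the threshold with dCBP (-2.21 ± 0.70, edgeR adjusted p = 0.060) and IHK-44 (-1.82 ± 0.70, edgeR adjusted p = 0.12). SOX4 did too with IHK-44 (-1.57 ± 0.50, edgeR adjusted p = 0.058), and SOX9, which was low from 2 h on, gave -0.44 with dCBP and -0.96 with IHK-44. For A485 edgeR called 0 members, against 0.00754% of genes, with 2 members (SOX11 and SOX13) at an unadjusted p under 0.05, and for JQAD 0 against 0%, with 0 members under it. DESeq2 and limma called no member for these 2.

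The time calls of SOX11 and SOX12 were lost without single libraries, 7 of 8 of them for SOX11 with dCBP (adjusted p from 0.069 to 0.0998), 6 of 8 for SOX12 with IHK-44 and 3 of 8 for SOX11 with IHK-44. Without 100 nM IHK-44 at 2 h none of the IHK-44 time calls remained (SOX6 -1.91, SOX11 -1.05 and SOX12 -1.16, at adjusted p = 0.052, 0.053 and 0.087). SOX6 with IHK-44 was also lost without 1 uM IHK-44 at 6 h (-1.83, edgeR adjusted p = 0.063). For SOX6 with dCBP the call held without each library in turn.

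The 4 compounds were compared with each other at 6 h over the same doses, in 6 pairs, each adjusted over all genes. SOX4 was 1.69 ± 0.37 higher (log2) with A485 than with dCBP (edgeR adjusted p = 0.0056), SOX6 was 1.70 ± 0.37 higher (edgeR adjusted p = 0.0051), SOX8 1.51 ± 0.51 higher (edgeR adjusted p = 0.038) and SOX5 2.04 higher (edgeR adjusted p = 0.038), while SOX13 was lower with A485 (-0.44, edgeR adjusted p = 0.035, though 0.28 on TPM values). These are 4 higher and 1 lower of 8, against 26.6% of all genes called, 14.4% higher and 12.3% lower. Against IHK-44, A485 left 5 members higher (SOX4 1.95, SOX9 1.46, SOX6 1.29, SOX12 0.89 and SOX11 0.72, at edgeR adjusted p = 0.0041, 0.020, 0.024, 0.020 and 0.017), beside 12.9% of all genes called and 9.41% called higher. Both sets of calls rested on the lower dose of A485: without the 100 nM A485 library 0 members were called in either pair, and SOX4 was 0.67 and 0.93 higher. Without 1 uM IHK-44 the A485 and IHK-44 pair also gave 0, and without 100 nM dCBP the A485 and dCBP pair gave 1.

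No member differed between dCBP and IHK-44 at 6 h in edgeR, against 0.00754% of all genes, and SOX12 and SOX13 were the 2 members at an unadjusted p under 0.05. DESeq2 and limma called none. The difference of dCBP from IHK-44 was 0.26 for SOX4 (95% confidence interval -0.57 to 1.09), -0.26 for SOX8 (-1.32 to 0.80), 0.69 for SOX9 (-0.15 to 1.53) and 0.35 for SOX11 (-0.03 to 0.73), so changes of these sizes between the pair cannot be told from 0 here. Without 1 uM dCBP SOX12 (0.80, edgeR adjusted p = 0.038) and SOX13 (0.59, edgeR adjusted p = 0.013) were higher with dCBP.

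Against JQAD, 7 of 8 members were lower after dCBP, 8 of 8 after IHK-44 and 4 of 8 (SOX4, SOX9, SOX11 and SOX13) after A485, beside 43.1%, 41.7% and 14% of all genes called in either direction and 21.3%, 21.4% and 7.82% called lower. The A485 and JQAD count was 0 without 1 uM A485 or without 1 uM JQAD, 3 without 100 nM JQAD and 7 without 100 nM A485.

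Dose was tested over both times, 1 uM against 100 nM of a compound, among 13137 genes. With A485, SOX4 was 1.32 lower on the log2 scale at the higher dose (-1.32 ± 0.15, edgeR adjusted p = 0.0032) and SOX9 changed by -1.26 ± 0.16 (edgeR adjusted p = 0.0046). These are 2 of 8 members, against 0.929% of all genes called in either direction and 0.853% called lower, and 7 of 8 members had an unadjusted p under 0.05. The A485 ratios of 1 uM to 100 nM were 0.506 at 2 h and 0.346 at 6 h for SOX4, 0.454 and 0.423 for SOX9, and 0.671 and 0.418 for SOX8. The dose effects of SOX11 (-0.60, edgeR adjusted p = 0.054) and SOX8 (-0.99, edgeR adjusted p = 0.35) missed the threshold. Both calls were lost without either A485 library of 6 h (SOX4 -1.03 each time, edgeR adjusted p = 0.15 and 0.16).

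**Figure D3:**
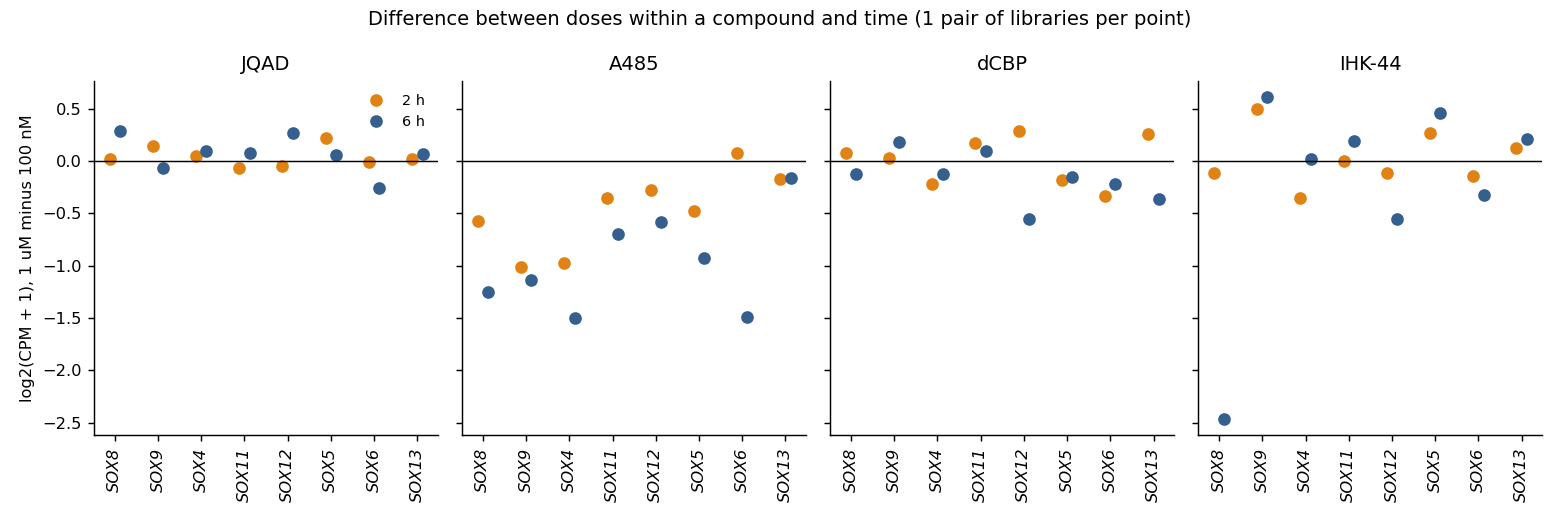
Difference between 1 uM and 100 nM in log2(CPM + 1) (vertical axis) for each SOX gene, compound and time, where a value below 0 means a lower level at 1 uM. SOX4 under A485 stands at -0.97 at 2 h and -1.50 at 6 h, and SOX8 under IHK-44 moves from -0.11 to -2.47.

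With dCBP no dose effect was called (0% of genes, no member at an unadjusted p under 0.05), and with IHK-44 none of the members was called by edgeR, DESeq2 or limma, against 0.107% of genes, with SOX8 and SOX9 the 2 members at an unadjusted p under 0.05. These 2 SOXE genes went in opposite directions with the dose of IHK-44: SOX8 had 43.6 CPM at 1 uM and 246 CPM at 100 nM after 6 h, a ratio of 0.178, whereas SOX9 had 1.5 times as much at 1 uM after 2 h and 1.67 times as much after 6 h. JQAD gave 0 members, 0% of genes and no member at an unadjusted p under 0.05. DESeq2 and limma called no member for dCBP and JQAD either.

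A comparison of the dose effects between compounds was added after seeing the data. The dose effect of A485 on SOX9 differed from that of IHK-44 by -1.89 ± 0.25 (edgeR adjusted p = 0.035, with 0.0228% of genes called). For SOX4 the difference between A485 and dCBP was -1.12 ± 0.22 and did not pass the adjustment (edgeR adjusted p = 0.22). For SOX8 the dose effect of IHK-44 differed from that of dCBP by -1.25, with a 95% confidence interval of -2.48 to -0.02 (edgeR adjusted p = 1, with 0.00761% of genes called).

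The share of SOX8 in the summed FPKM of the 8 genes and 11 other SOX genes shows how the makeup of SOX transcripts shifted. The controls had a sum of 363 to 390 FPKM, of which SOX8 held 73.5% to 73.9%, and with JQAD the share was 72.9% to 74.9%. At 6 h the share was 60.0% with 1 uM A485 and 67.9% with 100 nM A485. With dCBP it was 49.4% at 1 uM and 45.5% at 100 nM. With IHK-44 it was 30.9% at 1 uM, where the sum had gone down to 44.7 FPKM, and 69.7% at 100 nM, where the sum was 112 FPKM. SOX8 ranked first and SOX12 second in all 20 libraries, so the order at the top did not change even where SOX8 was lowest.

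**Figure D4:**
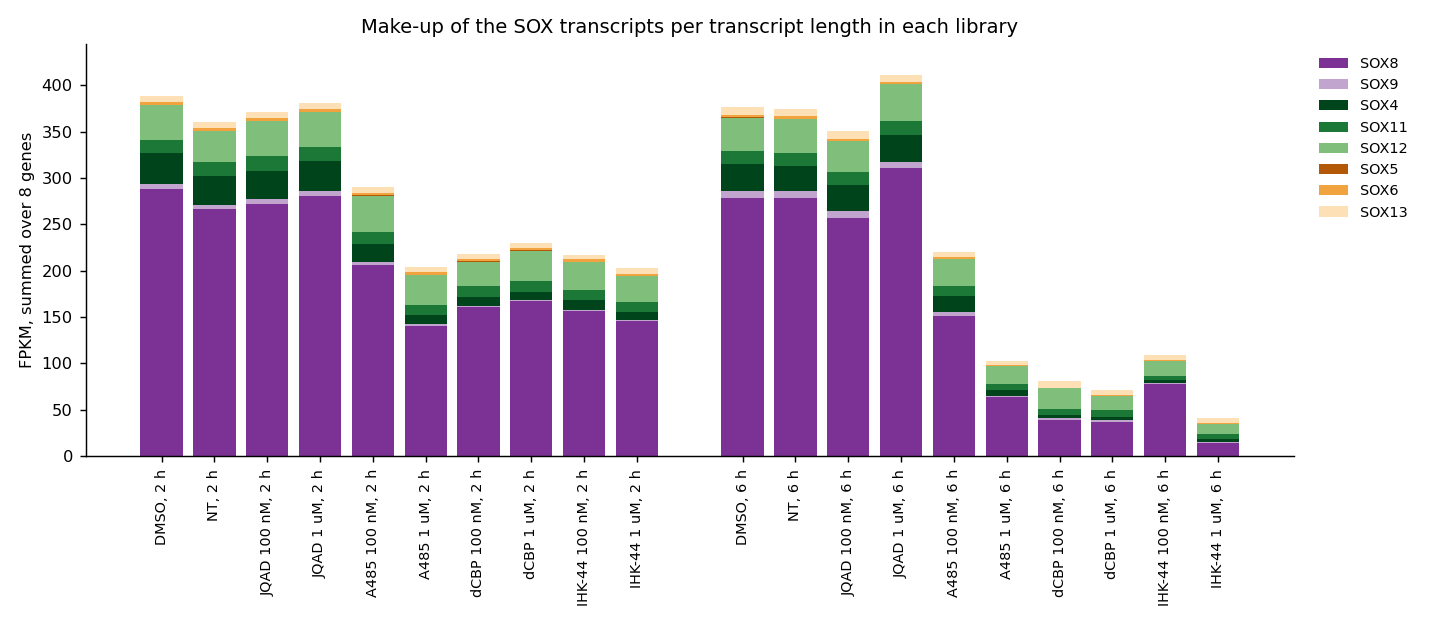
FPKM of the 8 SOX genes stacked in each library (vertical axis), 1 bar per library with a colour per gene, which leaves out the 11 other SOX genes. The SOX8 part is 267 to 288 FPKM high in the controls and 13.8 FPKM with 1 uM IHK-44 at 6 h.

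Across the 20 libraries, SOX8 in log2(CPM + 1) ran most closely with SOX12 (Pearson's r = 0.938), SOX6 (0.912) and SOX11 (0.904). The lowest value was that of SOX13 with SOX6 (0.231), while SOX13 with SOX9 had 0.713. The SOX genes were left out of the 10554 genes with a mean of at least 5 CPM before these were ranked by likeness. The patterns most like SOX8 were those of PDGFA (r = 0.984), which encodes a growth factor ligand, ATOH8 (0.983), a basic helix-loop-helix factor, and STC2 (0.982), a secreted glycoprotein. ATOH8 had a mean of 416 CPM in the controls and 11.5 CPM with 1 uM IHK-44 at 6 h. The closest gene was HS3ST3B1 for SOX4 (0.993), ARHGAP28 for SOX6 (0.992), MFSD2A for SOX11 (0.984), MTSS2 for SOX12 (0.981), MSX2 for SOX9 (0.964), TCAF2 for SOX5 (0.942) and CASZ1 for SOX13 (0.905). These correlations describe 20 libraries that share treatments and are given without a test.

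No fall was called among the 11 other SOX genes. Only SOX7 and SOX15 passed the filter on low counts, and edgeR called neither at 6 h. At 2 h SOX7, named after its values were seen, was higher with IHK-44 (1.34 ± 0.32, edgeR adjusted p = 0.022), with 5.01 to 7.28 CPM there at 2 h and 2.06 to 4.37 CPM over the 4 controls.

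TCF and LEF proteins also bind through an HMG box and carry Wnt signals to DNA, and all 4 of their genes were tested. With IHK-44 at 6 h 3 were lower and with dCBP 3 were lower and 1 higher, while with A485 1 was lower and 1 higher. Of all genes, 42.1%, 45.5% and 16.6% were called in either direction with IHK-44, dCBP and A485. Those called lower were 21.4%, 22.4% and 8.7%. TCF7L2 fell by 1.98 with dCBP and by 1.55 with IHK-44 on the log2 scale, from 45.9 to 65.9 CPM in the controls to 12.2 to 13.9 and 13.3 to 22.2 CPM at 6 h. TCF7L1 was called lower in all 3 (-0.60, -1.23 and -1.34 with A485, dCBP and IHK-44). TCF7 was higher with A485 (1.59 ± 0.36, edgeR adjusted p = 0.0094) and dCBP (1.03 ± 0.36, edgeR adjusted p = 0.029).

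Genes known as targets of these factors in other cells were listed from general knowledge. Of 6 known targets of SOX4 and SOX11, 3 were lower and 1 higher at 6 h with both dCBP and IHK-44, and 2 were lower with A485. Of all genes, 45.5%, 42.1% and 16.6% were called in either direction with dCBP, IHK-44 and A485, and 22.4%, 21.4% and 8.7% were called lower. Whether so few genes depart from these shares was not tested. SEMA3C, a guidance ligand, changed by -1.52 with dCBP and -1.23 with IHK-44. DCX, a microtubule protein of migrating neurons, changed by -1.20 with dCBP and -0.89 with IHK-44, and by -0.43 with A485. TEAD2, a factor of the Hippo pathway, changed by -0.43, -0.56 and -0.39 in the same order. TUBB3, a neuronal tubulin and a textbook target of SOX11, went the other way (1.24 with dCBP and 0.73 with IHK-44), from 7.88 to 10.2 CPM in the controls to 21.3 to 26.5 CPM with dCBP at 6 h.

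Of 12 cartilage genes known as targets of SOX9 with SOX5 and SOX6, 5 passed the filter. At 6 h COL11A2 was called higher with dCBP (1.25 ± 0.34, edgeR adjusted p = 0.0070), and no other call was made with any of the 4 compounds. COL2A1, the type II collagen gene, had 38.2 to 43.9 CPM in the controls and 41.4 to 48.0 CPM with dCBP at 6 h. Of 6 slow-fibre muscle genes known to be repressed by SOX6, 4 passed the filter. None was called higher, and TNNI1, slow troponin I, was lower with A485 (-0.60), dCBP (-0.47) and IHK-44 (-0.53), with TNNT1 lower with IHK-44 (-0.44). These 1, 1 and 2 of 4 genes stand beside 8.7%, 22.4% and 21.4% of all genes called lower, and 16.6%, 45.5% and 42.1% called in either direction. JQAD gave no call in any of these lists at 2 h or 6 h by edgeR.

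Myogenic identity genes moved in the same libraries. Of the 10 rhabdomyosarcoma markers 9 were tested, and at 6 h 8 were lower and 1 higher with dCBP and with IHK-44, and 5 lower with A485, beside 22.4%, 21.4% and 8.7% of all genes called lower with dCBP, IHK-44 and A485. TFAP2B changed by -4.52 with dCBP and -3.94 with IHK-44, MYOG by -2.91 and -2.25, and MYOD1 by -2.64 and -2.31, while CDH3 was higher (2.50 and 2.61) from the low level given above.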

How the data were processed

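Expected counts, FPKM and TPM per gene were deposited by the authors for coding genes, beside CPM values scaled over those rows, per the file headers. Per the submitters' processing notes, which give tools and builds with no roles, these include STAR 2.5.3a, RSEM 1.3.3, hg38 and mm10. The deposited TPM cover further rows (coding genes hold 27.9% to 53.9%), so TPM of a gene moves with them.

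Rounded expected counts were tested in edgeR 4.0.16 in R 4.3.3 (quasi-likelihood, TMM scaling, filterByExpr, Benjamini-Hochberg adjustment over all genes tested). The model had a mean for DMSO with NT and for each compound at each time, with 10 residual degrees of freedom. NT against DMSO was tested in another model, with DMSO, NT and each compound as levels beside time (13 residual degrees of freedom). Dose was fitted on the 16 treated libraries. DESeq2 1.42.0 and limma 3.58.1, with pseudocounts of 1 and 0.1 on the log2 scale, other scalings, other controls and leaving out each library were alternatives. On simulated counts, 86.8% of 197 genes changed by 1 on the log2 scale were recovered for IHK-44 at 6 h. For the time dependence of IHK-44 it was 69.5% (12893 genes each). The simulation gave all genes the same relative spread and no difference between doses. These shares can therefore be too high for genes with a wider spread, such as SOX8 and SOX5. Members and gene lists were chosen with earlier results of these data known. All 8 members are named. Of each list, up to 4 genes called at 6 h are named, in order of size. Likeness was Pearson's r of log2(CPM + 1), with 3 genes named for SOX8 and 1 for each other member. FPKM levels are the deposited values. Intervals on reads are exact Poisson.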

Additional observations from a re-analysis of the deposited data

Results flagged for a closer look

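The effect of dCBP and IHK-44 differed between 2 h and 6 h, by a test of the difference itself in edgeR with Benjamini-Hochberg adjustment, for 3 SOX genes. SOX6 differed by -2.41 with dCBP and -2.03 with IHK-44. SOX11 differed by -0.94 with dCBP and -1.09 with IHK-44, and SOX12 by -1.26 with IHK-44. These calls stand beside 9.06% of all genes called with dCBP and 9.89% with IHK-44. Only the call of SOX6 with dCBP held without each library in turn. With DMSO alone or NT alone as the control, none of these calls stayed. The reference of each time was then 1 library, and few or no genes at all were called. Those fits therefore cannot decide whether the calls of these 3 genes hold.

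The effect of dose on SOX9 differed between A485 and IHK-44 by -1.89, in a comparison chosen after seeing the data. SOX9 was lower at 1 uM than at 100 nM of A485 and higher at 1 uM than at 100 nM of IHK-44, at both times.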

How the results depend on the processing

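Each condition had 1 library, and doses stood in for replicates. No paired analysis was possible because the labels carry no replicate numbers, while the dose fit already compares 1 uM with 100 nM within each compound and time. Depth limits SOX5, with 2 to 40 reads per library. Of the alternatives that leave no library out, 593 values for single genes kept their direction and side of the threshold, 59 lost the call, 20 gained it and 10 reversed.

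With DMSO alone or NT alone, no member stayed called for A485 at 6 h (5 with both). The same held for dCBP and IHK-44 at 2 h (2 each) and for their time dependence (2 and 3). All 20 libraries stayed in these fits, but the reference of each time was then 1 library. Far fewer of all genes were called in these comparisons as well, so the losses are not particular to the SOX genes. The additive model, which compares with DMSO alone and averages both times, gave 0 members called for A485 and 4 for dCBP. It called 36 and 3137 of all genes with these compounds. Without the filter on low counts, the count was 1 for A485 at 2 h, beside 192 of all genes. It was 4 and 5 for the time dependence of dCBP and IHK-44, beside 1435 and 1450 of all genes, and 7 for A485 against JQAD. Limma on log2(CPM + 1) gave 3 for A485 against dCBP, and 7 for A485 against JQAD with either pseudocount.

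TPM scaling moved the median of all genes at 6 h to 0.37 with A485, -0.23 with dCBP and -0.22 with IHK-44, and at 2 h to 0.16, -0.36 and -0.39, beside 0.02 or less at 2 h and 0.06 or less at 6 h in the main fit. JQAD moved to 0.13 at 6 h and -0.12 at 2 h. The share of calls that were lower at 6 h went from 52.5%, 49.1% and 50.9% to 6.39%, 87.8% and 91.4%, and with limma on log2(CPM + 1), whose medians at 6 h were 0.09, 0.19 and 0.20, to 39.8%, 32.5% and 31.6%. All 6 genes called with A485 at 2 h were lower, against 15 of 19 with limma on log2(CPM + 1). At 2 h dCBP and IHK-44 went from 47.4% and 50.2% to 99.1% and 99.5%. On TPM, 3 SOX genes were called with A485 at 6 h, beside 3851 of all genes. At 2 h 6 were called with dCBP and 6 with IHK-44, beside 3275 and 3409 of all genes (747 and 647 in the main fit). For the time dependence of dCBP and IHK-44 0 and 1 were called, beside 90 and 169 of all genes. The TPM counts were 2 for A485 against JQAD and 0 for the dose of A485.

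Reversed values were all of results not called or of SOX13: SOX6 with A485 at 2 h (0.0066 on TPM), SOX12 with A485 at 2 h (0.015 with either pseudocount on CPM, 0.16 on TPM, 0.052 with NT alone), SOX13 between A485 and dCBP (0.28 on TPM), SOX5 between dCBP and IHK-44 (0.027 on log2(CPM + 0.1)) and SOX8 between dCBP and IHK-44 (0.22 with either pseudocount on CPM, 0.19 on TPM). The cause was not tested.

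Leaving out 1 library at a time, the count of members called ranged from 0 to 7 for A485 at 6 h, 6 to 8 for dCBP, 7 to 8 for IHK-44, and at 2 h from 0 to 2, 0 to 1 and 0 to 0. For the time dependence of A485, dCBP and IHK-44 it ranged from 0 to 2, 1 to 2 and 0 to 4. It ranged from 0 to 7 for A485 against dCBP, against IHK-44 and against JQAD, from 0 to 2 for dCBP against IHK-44, from 6 to 8 for dCBP against JQAD and from 7 to 8 for IHK-44 against JQAD. For dose it ranged from 0 to 3 with A485 and from 0 to 1 with IHK-44, and for JQAD it was 0 in every comparison with the controls. Each of these fits left 1 library in a group. Calls over all genes with A485, dCBP and IHK-44 against the controls moved as well. Fitted values ranged from -1.60 to 0.351 for SOX5 with A485 at 6 h, -0.21 to 0.119 for SOX12 with A485 at 2 h, -0.85 to 1.21 for SOX5 between dCBP and IHK-44 and -1.03 to 1.5 for SOX8 in that pair.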
